A study of Mus musculus with 12 samples.

Results

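The genes described here are 47 ligands, receptors, Smads, Id targets and antagonists of the bone morphogenetic protein (BMP), activin and transforming growth factor beta (TGF-beta) pathways, listed by name and measured in the newborn mouse reproductive tract. They were found by platform gene symbol among 45281 bead array probes. A probe carried the symbol for 45 of the 47 genes, and 83 probes did so in all. No probe carried the symbol of Inhbb, an activin subunit, or of Smad4, the Smad that both branches share. A gene was tested where at least 1 probe was above background on at least 4 of the 12 arrays, which left 35 members among 11178 genes tested.

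The samples were 3 groups of female mice at postnatal day 3, with 4 pools of 3 mice in each group. The control genotype, cHet, was Trp63 flox/wt ; Pax2-cre, and its uterus and vagina were both measured. The knockout, cKO, was labelled Trp63 flox/floxt ; Pax2-cre, and only its vagina was measured. All 3 groups carried Pax2-cre and at least 1 floxed copy of Trp63, on a mixed background of C57BL/6, S129/5 and CD-1, so no group was wild type. Cre in these mice follows Pax2, a gene of the embryonic genital and urinary ducts, and cells without Pax2-cre activity keep an intact gene. The replicates were pools, so p-values measure the spread between pools.

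BMP, activin and TGF-beta ligands bind pairs of type I and type II serine/threonine kinase receptors. BMP receptors phosphorylate Smad1, Smad5 and Smad9, activin and TGF-beta receptors phosphorylate Smad2 and Smad3, and these carry the signal to the nucleus with Smad4. Secreted antagonists such as follistatin and noggin hold ligands away from their receptors, and Id genes are common targets of BMP signalling. In the neonatal mouse vagina, activin A and BMP4 from the mesenchyme are known to act through Smads, together with the transcription factor Runx1, to switch on Trp63 in the overlying epithelium. Trp63 encodes p63, which the basal layer of stratified epithelium needs.

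Arrays of a group correlated at 0.972 to 0.991 across genes, and 39.1% to 45.6% of probes were above background. Pools numbered 1 and 2 lay apart from pools 3 and 4 in every group on the second principal component, so differences within each of these sets stand beside the leading results. Among the members, 7 of 35 (20.0%) differed between the sets, against 12.3% of all genes. They were Bmpr2, Acvr1, Smad1, Smad3, Chrd and Fstl1, higher in pools 3 and 4, and Tgfb3, lower there. The Trp63 probe read log2 4.54, 4.52, 4.60 and 4.75 in cHet uterus pools 1 to 4, 9.74, 9.56, 9.35 and 9.71 in cHet vagina and 9.07, 9.72, 9.43 and 9.91 in cKO vagina. Those values did not separate the genotypes (cKO minus cHet vagina -0.06, SE 0.17, adjusted p = 0.979). Its place relative to the floxed part is unstated in the sources, so it checks nothing about the deletion. Runx1 averaged 4.40 ± 0.31 in uterus, 7.06 ± 0.54 in cHet vagina and 6.84 ± 0.23 in cKO vagina (SD, n = 4). Isl1, a marker of the caudal tract, was 6.01 higher in cHet vagina than in uterus on the log2 scale, while Hoxa11, a uterine position gene, differed by -2.53 (adjusted p = 1.8e-10 and 6.51e-07). Isl1 was above background in 1 of 4 uterine pools. Of 9 ovarian markers, 6 were above background on no array or had no probe, Amh, Star and Zp3 among them. Gdf9 was above it in all 12 pools, and Cyp11a1 in 4 of 4 uterine, 0 of 4 cHet vaginal and 2 of 4 cKO vaginal pools. The ovarian list summed to 18.6 to 52.3 units in uterus, 14.0 to 16.7 in cHet vagina and 17.6 to 19.9 in cKO vagina, and its part in the results was not tested.

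The 250 bases before the transcription start are shown for the members whose groups differed most between the organs, among those with an entry in the RefSeq promoter table (GRCm38.p6). They are Bmp4 and Inhba, the ligand genes most raised in vagina, and Id3 and Id4, the members most lowered there. The Bmp4 window is chr14:46390670-46390919 on the minus strand, the Inhba window is chr13:16011601-16011850 on the plus strand, the Id3 window is chr4:136143572-136143821 on the plus strand and the Id4 window is chr13:48260866-48261115 on the plus strand. Capitals mark a match to one of 3 motifs searched on both strands, the RUNX core TGTGGT, the SMAD box CAGACA and the GC-rich SMAD element GGCGCC.
Bmp4: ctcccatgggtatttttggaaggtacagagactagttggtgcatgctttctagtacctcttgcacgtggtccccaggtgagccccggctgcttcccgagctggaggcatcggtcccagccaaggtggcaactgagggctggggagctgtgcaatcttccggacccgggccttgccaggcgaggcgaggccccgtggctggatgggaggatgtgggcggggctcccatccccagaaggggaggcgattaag
Inhba: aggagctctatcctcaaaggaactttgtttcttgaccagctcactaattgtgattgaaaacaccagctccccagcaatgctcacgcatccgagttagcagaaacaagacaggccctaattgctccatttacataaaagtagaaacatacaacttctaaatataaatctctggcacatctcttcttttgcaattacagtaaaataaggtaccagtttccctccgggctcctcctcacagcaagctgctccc
Id3: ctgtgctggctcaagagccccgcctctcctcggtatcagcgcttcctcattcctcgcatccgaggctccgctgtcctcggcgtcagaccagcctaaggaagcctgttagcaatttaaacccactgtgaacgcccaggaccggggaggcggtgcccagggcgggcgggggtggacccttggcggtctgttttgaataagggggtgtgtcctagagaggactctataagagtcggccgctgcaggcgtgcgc
Id4: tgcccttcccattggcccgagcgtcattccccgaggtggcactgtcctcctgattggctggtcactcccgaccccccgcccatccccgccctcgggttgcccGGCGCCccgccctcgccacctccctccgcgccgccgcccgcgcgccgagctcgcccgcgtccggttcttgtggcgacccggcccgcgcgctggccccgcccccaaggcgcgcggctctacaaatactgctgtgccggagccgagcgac
One match was found in the 4 windows, GGCGCC in Id4 from 148 to 143 bases before the start. TGTGGT was in 14.0% of all 32851 windows of this length, CAGACA in 17.1% and GGCGCC in 9.59%. The table held 41 windows for 35 of the 47 members, with TGTGGT in 1, CAGACA in 7 and GGCGCC in 10 of them. GC content was 63.2% in the Bmp4 window, 43.2% in Inhba, 62.8% in Id3 and 75.6% in Id4, against a median of 52.4% over all windows. A match describes these letters and says nothing of binding.

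Vagina and uterus of the control genotype were set against each other first, to ask which members differed between the organs. Ligand genes made up most of those higher in vagina, led by Bmp4 and Inhba, while Id3 and Id4, a pair of BMP target genes, were lower. Bmp4 read log2 7.09, 6.73, 6.68 and 5.93 in cHet uterus pools 1 to 4, 8.90, 9.10, 9.18 and 9.49 in cHet vagina and 9.47, 9.41, 9.26 and 9.45 in cKO vagina. Every vaginal pool of either genotype lay above every uterine pool. Its level in cHet vagina was 5.90-fold that in uterus (log2 difference 2.56, SE 0.20, adjusted p = 1.54e-07). That log2 difference was 2.08 within pools 1 and 2 and 3.04 within pools 3 and 4. A dimmer second Bmp4 probe was above background in 0 of 4 uterine and 4 of 4 cHet vaginal pools, and differed by 0.98. It passed the filter through vaginal pools alone, and its uterine level is a bound. Of the 35 members tested, 8 were called higher and 4 lower at an adjusted p under 0.05, or 34.3%, against 18.6% of all genes (9.42% higher and 9.15% lower). The median difference over the tested members was 0.09 on the log2 scale, against -0.02 over all genes. In bulk tissue, fewer cells of a type and less RNA per cell cannot be told apart.

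**Figure D1:**
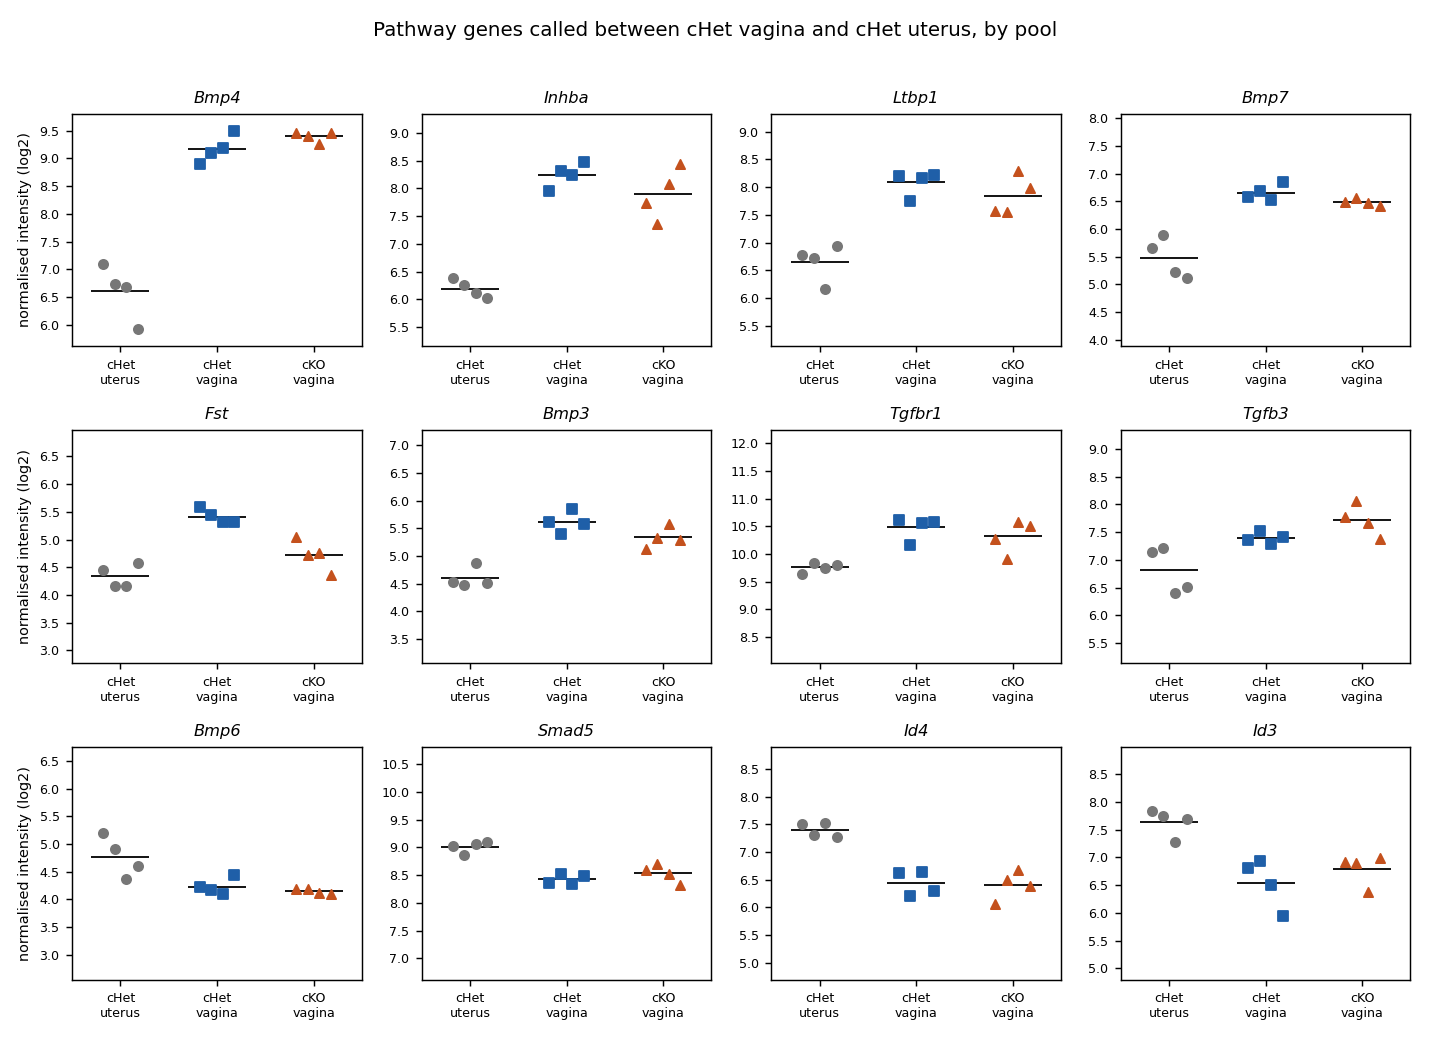
Normalised log2 intensity (vertical axis) of the 12 members called between cHet vagina and uterus, 1 panel per gene on axes of equal span, by group (horizontal axis), 1 point per pool, with the group mean as a line. Bmp4 and Inhba show no overlap between uterus and either vagina, while Fst is highest in cHet vagina and lower in cKO vagina.

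Among the BMP and GDF ligands, 3 of 5 tested were higher in cHet vagina and 1 was lower. Bmp7, a ligand made by many epithelia, read log2 5.65, 5.88, 5.22 and 5.11 in cHet uterus pools 1 to 4, 6.57, 6.68, 6.51 and 6.85 in cHet vagina and 6.48, 6.56, 6.48 and 6.42 in cKO vagina. No vaginal pool overlapped a uterine one, and the difference between the cHet organs was 1.19 (SE 0.16, adjusted p = 5.18e-05). Bmp3, a divergent BMP that can oppose other members of the family, read log2 4.52, 4.48, 4.88 and 4.51 in cHet uterus pools 1 to 4, 5.61, 5.39, 5.85 and 5.58 in cHet vagina and 5.13, 5.33, 5.58 and 5.30 in cKO vagina. These values were low but did not overlap between organs, and cHet vagina was higher by 1.01 (SE 0.15, adjusted p = 9.89e-05).

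Bmp6 ran the other way from the other called BMP genes, near background. Its probe read log2 5.20, 4.91, 4.37 and 4.59 in cHet uterus pools 1 to 4, 4.22, 4.17, 4.09 and 4.44 in cHet vagina and 4.19, 4.19, 4.11 and 4.10 in cKO vagina, and it was above background in 3 of 4 uterine, 1 of 4 cHet vaginal and 0 of 4 cKO vaginal pools. One cHet vaginal pool overlapped the uterine range. The difference between the cHet organs was -0.54 (SE 0.16, adjusted p = 0.0289), and the call held under 13 of 22 alternatives. It was lost without uterine pool 1 or 2 or without cHet vaginal pool 1, 2 or 3 (adjusted p = 0.0595 to 0.0935). It was also lost without background correction, with an offset of 50 and with only the 2 groups compared. In pools 3 and 4 alone the difference was -0.22 (adjusted p = 0.44). A filter at 8 arrays left Bmp6 untested. Gdf10, a relative of Bmp3, ranged from 9.55 to 10.70 over the 12 pools and was not called in any comparison. Between the cHet organs it differed by -0.32 within pools 1 and 2 and by 0.84 within pools 3 and 4, and with pools 3 and 4 alone it was called in both comparisons with uterus. Bmp2, Bmp5 and Gdf11 were above background on 0 arrays and Bmp8b on 1, so they were not tested.

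Inhba encodes the beta A subunit, a pair of which forms activin A. It read log2 6.38, 6.25, 6.11 and 6.03 in cHet uterus pools 1 to 4, 7.96, 8.31, 8.24 and 8.48 in cHet vagina and 7.74, 7.36, 8.07 and 8.43 in cKO vagina. All vaginal pools lay above all uterine pools, by 4.17-fold on average in cHet mice (log2 difference 2.06, SE 0.20, adjusted p = 1.18e-06). The sets of pools gave 1.82 and 2.29. Inha, the alpha subunit that turns activin into inhibin, ranged from 4.61 to 5.44 over the 12 pools and differed by -0.03 between the cHet organs (adjusted p = 0.934).

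Of the TGF-beta genes, Tgfb3 read log2 7.14, 7.21, 6.41 and 6.51 in cHet uterus pools 1 to 4, 7.36, 7.53, 7.29 and 7.41 in cHet vagina and 7.78, 8.07, 7.66 and 7.38 in cKO vagina. Vaginal pools lay above uterine ones with no overlap, and the difference between the cHet organs was 0.58 (SE 0.19, adjusted p = 0.0441). It was 0.27 within pools 1 and 2 and 0.89 within pools 3 and 4. The call was lost without uterine pool 3 or 4, without any 1 of the 4 cHet vaginal pools, or without cKO pool 1 or 3 (adjusted p = 0.0525 to 0.148). It was also lost without background correction, with an offset of 50, with median scaling, without the filter on dim probes, and in pools 1 and 2 alone. Tgfb3 kept this call under 10 of 23 alternatives. Tgfb2 read log2 7.40, 7.47, 7.07 and 7.49 in cHet uterus pools 1 to 4, 7.19, 6.24, 7.47 and 7.55 in cHet vagina and 7.23, 6.50, 7.35 and 7.26 in cKO vagina, with pool 2 the lowest of each vaginal group. It was not called between the cHet organs (-0.24, adjusted p = 0.603). Tgfb1 was above background on 3 arrays and was not tested.

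Among 9 receptor genes tested, Tgfbr1, the type I TGF-beta receptor, was the 1 called between the cHet organs. It read log2 9.65, 9.84, 9.75 and 9.81 in cHet uterus pools 1 to 4, 10.62, 10.16, 10.57 and 10.58 in cHet vagina and 10.27, 9.91, 10.58 and 10.51 in cKO vagina. Every vaginal pool was above every uterine pool, and cHet vagina was higher by 0.72 (SE 0.16, adjusted p = 0.00368). The sets of pools gave 0.64 and 0.80, and the call was lost in pools 1 and 2 alone (adjusted p = 0.108). A second Tgfbr1 probe differed by 0.31. Acvr2a, a type II activin receptor, read log2 4.76, 4.40, 4.82 and 5.06 in cHet uterus pools 1 to 4, 5.37, 4.84, 5.28 and 5.28 in cHet vagina and 5.58, 5.29, 5.34 and 5.00 in cKO vagina. Its cHet organs overlapped and differed by 0.43 (adjusted p = 0.0994), which passed the threshold without cHet vaginal pool 2 (0.55, adjusted p = 0.04). The type I BMP receptor Bmpr1a read log2 9.27, 9.16, 9.04 and 9.03 in cHet uterus pools 1 to 4, 8.85, 8.59, 9.08 and 9.15 in cHet vagina and 9.10, 8.98, 8.66 and 8.83 in cKO vagina. Its groups overlapped throughout, and the cHet organs differed by -0.21 (adjusted p = 0.41). The type II receptor genes Bmpr2 and Acvr2b, the type I receptor gene Acvr1, Tgfbr2 and Tgfbr3 were also not called between the cHet organs. Acvr1b was above background on at most 2 arrays and was not tested.

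Smad5, which relays BMP signals, was the Smad called between the cHet organs, out of 5 tested. It read log2 9.03, 8.87, 9.06 and 9.10 in cHet uterus pools 1 to 4, 8.36, 8.53, 8.35 and 8.48 in cHet vagina and 8.59, 8.71, 8.52 and 8.32 in cKO vagina. Uterine pools lay above all vaginal pools, and the difference was -0.59 (SE 0.13, adjusted p = 0.00294). A dimmer second Smad5 probe differed by -0.13, and the call was lost when probes were averaged (adjusted p = 0.0638). It was also lost in pools 1 and 2 alone (-0.50, adjusted p = 0.181). Smad3, an activin and TGF-beta Smad, read log2 9.21, 9.26, 9.36 and 9.56 in cHet uterus pools 1 to 4, 9.46, 9.07, 9.48 and 9.53 in cHet vagina and 9.01, 8.98, 9.57 and 9.47 in cKO vagina. The 3 groups overlapped, and pools 1 and 2 of cKO vagina were the lowest values. Smad6, an inhibitory Smad of the BMP branch, read log2 4.63, 5.30, 4.74 and 4.74 in cHet uterus pools 1 to 4, 4.53, 5.28, 4.58 and 4.99 in cHet vagina and 4.81, 4.39, 5.04 and 4.75 in cKO vagina. These values were near background and overlapped fully. Between the cHet organs Smad3 differed by 0.03 and Smad6 by -0.01 (adjusted p = 0.928 and 0.989). Smad1 and Smad2 were not called either, and Smad7 and Smad9 were above background on 0 arrays.

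The Id genes encode inhibitors of basic helix-loop-helix factors, and 2 of the 4 were lower in vagina. Id3 read log2 7.83, 7.75, 7.29 and 7.70 in cHet uterus pools 1 to 4, 6.80, 6.94, 6.50 and 5.95 in cHet vagina and 6.92, 6.89, 6.37 and 6.98 in cKO vagina. No vaginal pool reached the uterine range, and cHet vagina was lower than uterus 2.14-fold (log2 difference -1.09, SE 0.21, adjusted p = 0.00107). Within the sets it differed by -0.92 and -1.27. Id4 read log2 7.50, 7.31, 7.52 and 7.27 in cHet uterus pools 1 to 4, 6.61, 6.20, 6.64 and 6.30 in cHet vagina and 6.07, 6.50, 6.67 and 6.39 in cKO vagina. Its groups were as separate, with a difference of -0.96 (SE 0.15, adjusted p = 0.000247), and a second Id4 probe differed by -0.76. Id1 read log2 9.76, 9.41, 9.60 and 9.40 in cHet uterus pools 1 to 4, 10.10, 10.33, 9.91 and 9.49 in cHet vagina and 9.77, 9.97, 9.18 and 9.51 in cKO vagina. Here cHet vagina was the highest group on average and overlapped both others, with a difference of 0.41 from uterus (SE 0.19, adjusted p = 0.174). Id2 read log2 10.20, 10.21, 10.65 and 10.24 in cHet uterus pools 1 to 4, 10.23, 10.16, 10.09 and 9.84 in cHet vagina and 10.34, 10.02, 10.00 and 10.24 in cKO vagina. Its groups overlapped, and its 3 probes differed between the cHet organs by -0.50 to -0.25, while the probe standing for the gene had an adjusted p = 0.302. Averaging the probes gave Id2 a call (-0.37, adjusted p = 0.0499).

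Follistatin, the product of Fst, binds activins and some BMPs and keeps them from their receptors. Fst read log2 4.45, 4.16, 4.16 and 4.57 in cHet uterus pools 1 to 4, 5.58, 5.44, 5.32 and 5.32 in cHet vagina and 5.05, 4.73, 4.76 and 4.36 in cKO vagina. All cHet vaginal pools were above all uterine pools, by 2.11-fold (log2 difference 1.08, SE 0.16, adjusted p = 9.86e-05), with 1.20 and 0.95 within the sets. The probe was dim, above background in 2 of 4 uterine, 4 of 4 cHet vaginal and 3 of 4 cKO vaginal pools. Fst was the 1 antagonist of 6 tested that was called between the cHet organs.

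Grem1, a secreted BMP antagonist, read log2 4.11, 4.38, 4.48 and 4.18 in cHet uterus pools 1 to 4, 4.38, 4.47, 4.69 and 5.07 in cHet vagina and 4.34, 4.51, 4.64 and 4.55 in cKO vagina, and was above background in 0 of 4 uterine and 3 of 4 pools of each vaginal group. Grem1 passed the filter through vaginal pools alone, and its uterine level is a bound. The cHet organs overlapped and were not called apart (0.36, adjusted p = 0.136), so no minimum rise is given. Nog, which encodes noggin, read log2 4.44, 4.77, 4.21 and 4.32 in cHet uterus pools 1 to 4, 4.82, 4.32, 4.23 and 4.33 in cHet vagina and 4.17, 4.40, 4.44 and 4.12 in cKO vagina, above background in 2, 1 and 1 of 4 pools. Its groups overlapped (adjusted p = 0.985 between the cHet organs). The BMP antagonist genes Chrd and Nbl1 and the secreted glycoprotein gene Fstl1 were not called. Fstl3 was above background on 3 arrays and Bambi, a decoy receptor gene, on 0.

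Ltbp1 and Ltbp3 encode proteins that tether latent TGF-beta to the matrix. Ltbp1 read log2 6.78, 6.73, 6.16 and 6.93 in cHet uterus pools 1 to 4, 8.21, 7.75, 8.17 and 8.23 in cHet vagina and 7.57, 7.54, 8.29 and 7.98 in cKO vagina. Vaginal pools exceeded uterine pools without overlap, by 2.71-fold in cHet mice (log2 difference 1.44, SE 0.20, adjusted p = 5.66e-05), with 1.22 and 1.65 within the sets. A second Ltbp1 probe, near background, was above it in 0 of 4 uterine and 2 of 4 cHet vaginal pools, and differed by 0.12. It too passed the filter through vaginal pools alone. The remaining Ltbp1 probes were above background on no array. Ltbp3 differed by 0.09 (adjusted p = 0.778).

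Groups of members differed in how many were called, and no test between the groups was made. Ligand genes of the 3 families gave 6 calls among 9 tested, 5 of them higher. Receptors gave 1 call in 9 and Smads 1 in 5. Over all genes 18.6% were called. Of all 35 members, 8 were higher and 3 lower in vagina with no overlap between the cHet organs, or 31.4%, against 21.6% of all genes (10.8% in each direction). Cell type markers differed between the organs too. Smooth muscle markers changed in both directions, with 2 of 6 tested higher, Actg2 and Myh11, and 1 lower, Des. Epithelial markers summed to 7739 to 11992 intensity units in cHet vagina against 3407 to 4229 in uterus, with 6 of 7 called higher. Stratified basal markers, Trp63 among them, summed to 7383 to 14040 against 939 to 1192, with 6 of 6 higher. Urothelial markers summed to 623 to 940 against 218 to 359, with 3 of 4 tested higher and 1 lower. Stromal markers summed to 7673 to 10607 against 6379 to 8518, with 0 of 6 called higher and 1, Pdgfrb, lower. Leukocyte markers summed to 156 to 180 against 237 to 439, with 3 of 4 tested lower. Endothelial markers summed to 522 to 756 against 1154 to 1349, with 3 of 5 tested lower, and mesothelial markers to 29.8 to 95.5 against 660 to 1162, with 2 of 2 tested lower and Wt1 not above background. The part of these shifts in the member results was not tested.

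The vaginas of both genotypes were then set against each other, to ask whether deleting Trp63 moved the members. None of the 35 was called by limma at an adjusted p under 0.05, in a comparison that called 43 of 11178 genes (0.385%), with 0.0537% of genes higher and 0.331% lower. Differences ran from -0.69 for Fst to 0.32 for Tgfb3, with a median of -0.07 against -0.01 over all genes. At an unadjusted p under 0.05 there were 3 members, Fst, Bmpr1b and Smad2, against 7.05% of all genes. The groups did not overlap for Nbl1, which was higher in cKO, and for Fst and Bmpr1b, which were lower, or 8.57% of members against 4.33% of all genes (1.68% higher and 2.65% lower).

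**Figure D2:**
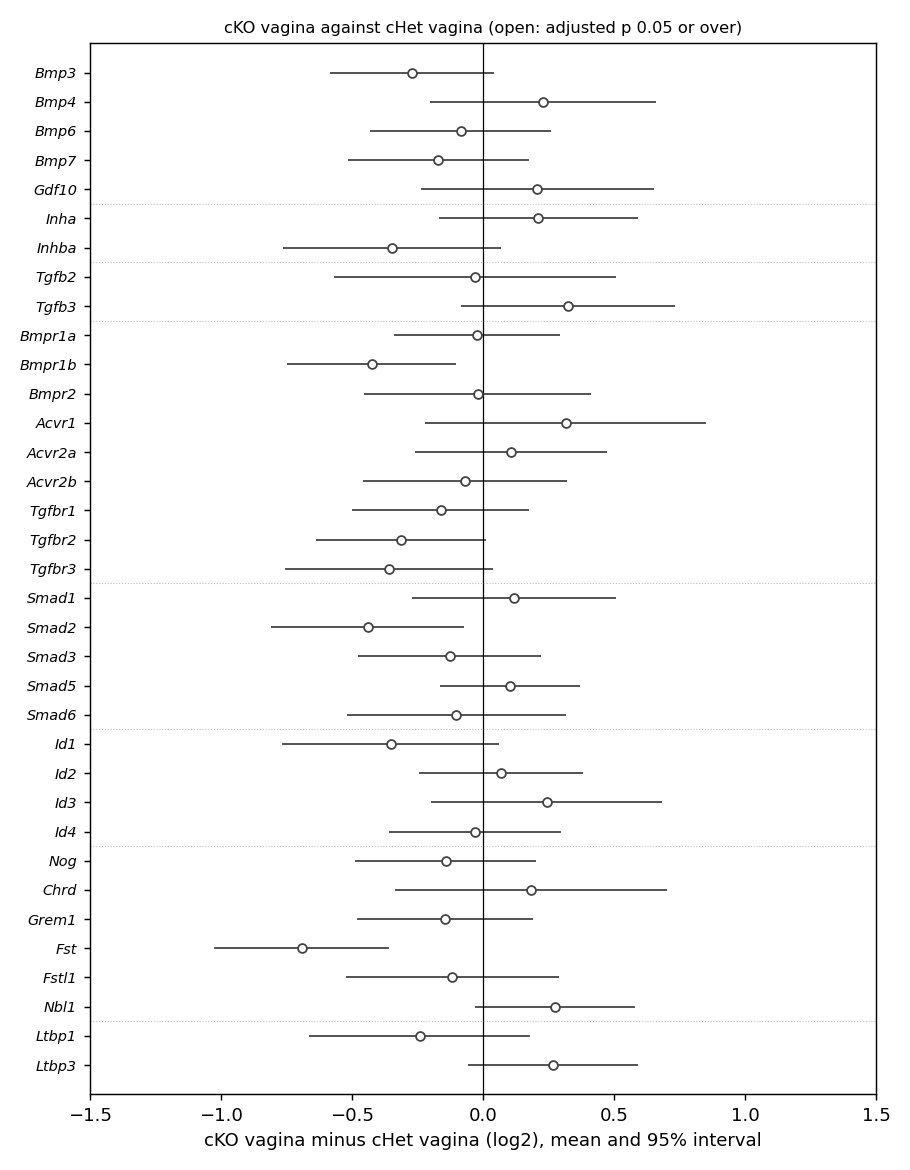
Difference between cKO and cHet vagina (log2, horizontal axis) for each tested member, with its 95% interval, where open points have an adjusted p of 0.05 or over. All 35 points are open, and the Fst interval lies farthest below 0.

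Fst had the largest difference, and its 4 cKO pools, at 5.05, 4.73, 4.76 and 4.36, all lay below its 4 cHet vaginal pools, at 5.58, 5.44, 5.32 and 5.32. The difference was -0.69 (SE 0.16, 95% interval -1.03 to -0.36, adjusted p = 0.0795), or 1.61-fold lower in cKO. It was -0.62 within pools 1 and 2 and -0.76 within pools 3 and 4. With these sets as a term of the fit the adjusted p was 0.0334. Over 23 alternative settings the difference ran from -0.80 to -0.24 and the adjusted p from 0.0334 to 0.326. Fst in cKO vagina lay between its levels in uterus and cHet vagina, at 4.72 ± 0.28 against 4.34 ± 0.21 and 5.41 ± 0.13 (SD, n = 4). The cKO and uterine pools overlapped and were not called apart (0.39, adjusted p = 0.109), except without cKO pool 4 (0.51, adjusted p = 0.0381).

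**Figure D3:**
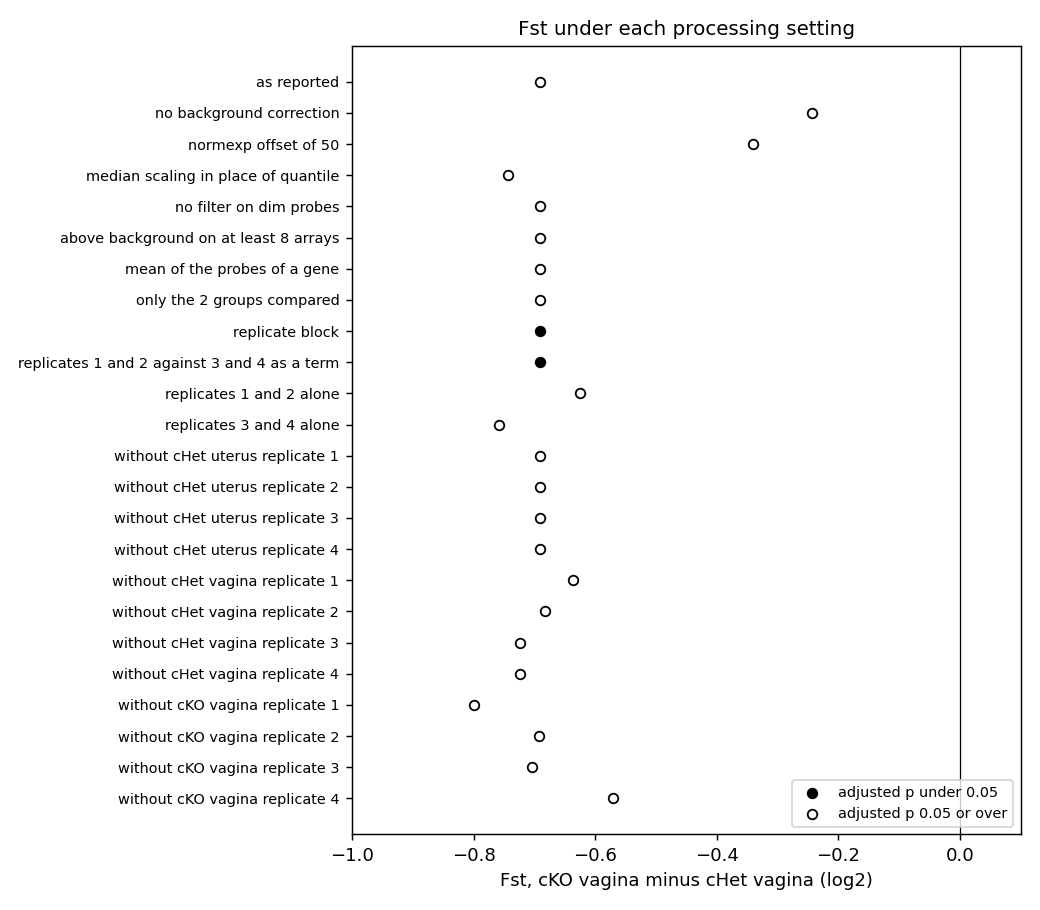
Fst difference between cKO and cHet vagina (log2, horizontal axis) as reported and under each of 23 alternative settings (vertical axis), filled where the adjusted p was under 0.05. All points lie below 0, from -0.80 to -0.24, and 2 are filled.

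Bmpr1b, a type I BMP receptor, read log2 6.27, 6.47, 6.18 and 6.13 in cHet uterus pools 1 to 4, 6.42, 6.24, 5.98 and 6.00 in cHet vagina and 5.50, 5.57, 5.90 and 5.98 in cKO vagina. The cKO pools lay below both other groups, though the highest cKO pool and the lowest cHet vaginal pool both read 5.98 at this rounding. The difference between the vaginas was -0.42 (95% interval -0.75 to -0.10, adjusted p = 0.47), with -0.80 in pools 1 and 2 and -0.05 in pools 3 and 4. A second Bmpr1b probe of like brightness differed by -0.01. Smad2, an activin and TGF-beta Smad, averaged 6.93 ± 0.25 in cHet and 6.49 ± 0.24 in cKO vagina, with overlapping pools (-0.44, adjusted p = 0.558). Nbl1 averaged 8.98 ± 0.17 and 9.26 ± 0.05, a difference of 0.27 (adjusted p = 0.776).

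The ligand genes called higher in vagina were not called between the genotypes, and their intervals bound the change that the arrays allow. Bmp4 differed by 0.23 (95% interval -0.20 to 0.66) and Bmp7 by -0.17 (-0.52 to 0.17). Bmp3 differed by -0.27 (-0.58 to 0.04). Inhba differed by -0.35 (-0.76 to 0.07), with cKO pools 1 and 2 below every cHet vaginal pool and pools 3 and 4 within their range. Tgfb3 differed by 0.32 (-0.08 to 0.73). Adjusted p was 0.790 to 0.914 for these 5 genes.

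Among the targets, Id1 was lower in cKO vagina on average without a call (-0.35, 95% interval -0.77 to 0.06, adjusted p = 0.794), by -0.35 and -0.36 within the sets. Id3 and Id4, which were lower in vagina than in uterus, differed by 0.24 and -0.03 between the genotypes (adjusted p = 0.894 and 0.992). The 3 Id2 probes disagreed in sign, from -0.42 to 0.55. Markers of stratified basal epithelium summed to 1985 to 4739 intensity units in cKO against 7383 to 14040 in cHet vagina, with 2 of 6, Krt17 and Col17a1, called lower. Urothelial markers summed to 244 to 537 against 623 to 940, with 1 of 4 tested, Upk2, called lower (-1.36, adjusted p = 0.00164). The part of both lists in the Fst values was not tested. Skeletal muscle markers reached 1486 units in 1 cKO pool against at most 611 in cHet vagina, with 0 of 6 tested called.

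The last comparison set cKO vagina against the same 4 uterine pools, so it shares its controls with the cHet organ comparison. Here 8 of 35 members were called higher and 6 lower, or 40.0%, against 18.3% of all genes (8.92% higher and 9.41% lower), with a median of 0.15 against -0.02. By gene, 11 members were called in the vaginas of both genotypes, each with the same sign. Fst was called in cHet vagina alone, and Acvr2a, Bmpr1b and Tgfbr3 in cKO vagina alone. None of these 4 was called between the genotypes, and the other 20 members were called in neither. Of those 20, Nbl1 (0.42, adjusted p = 0.0526) and Tgfbr2 (-0.44, adjusted p = 0.0542) lay just over the threshold in cKO vagina. Both were called there under some alternatives, such as no background correction or the sets of pools as a term. The Bmpr1b pattern was that of the probe standing for the gene. Its second probe differed from uterus by -0.46 in cHet and -0.47 in cKO vagina. In cKO vagina, 8 members lay above and 6 below the uterine pools with no overlap, together 40.0% of members against 21.6% of all genes (10.5% higher and 11.2% lower).

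**Figure D4:**
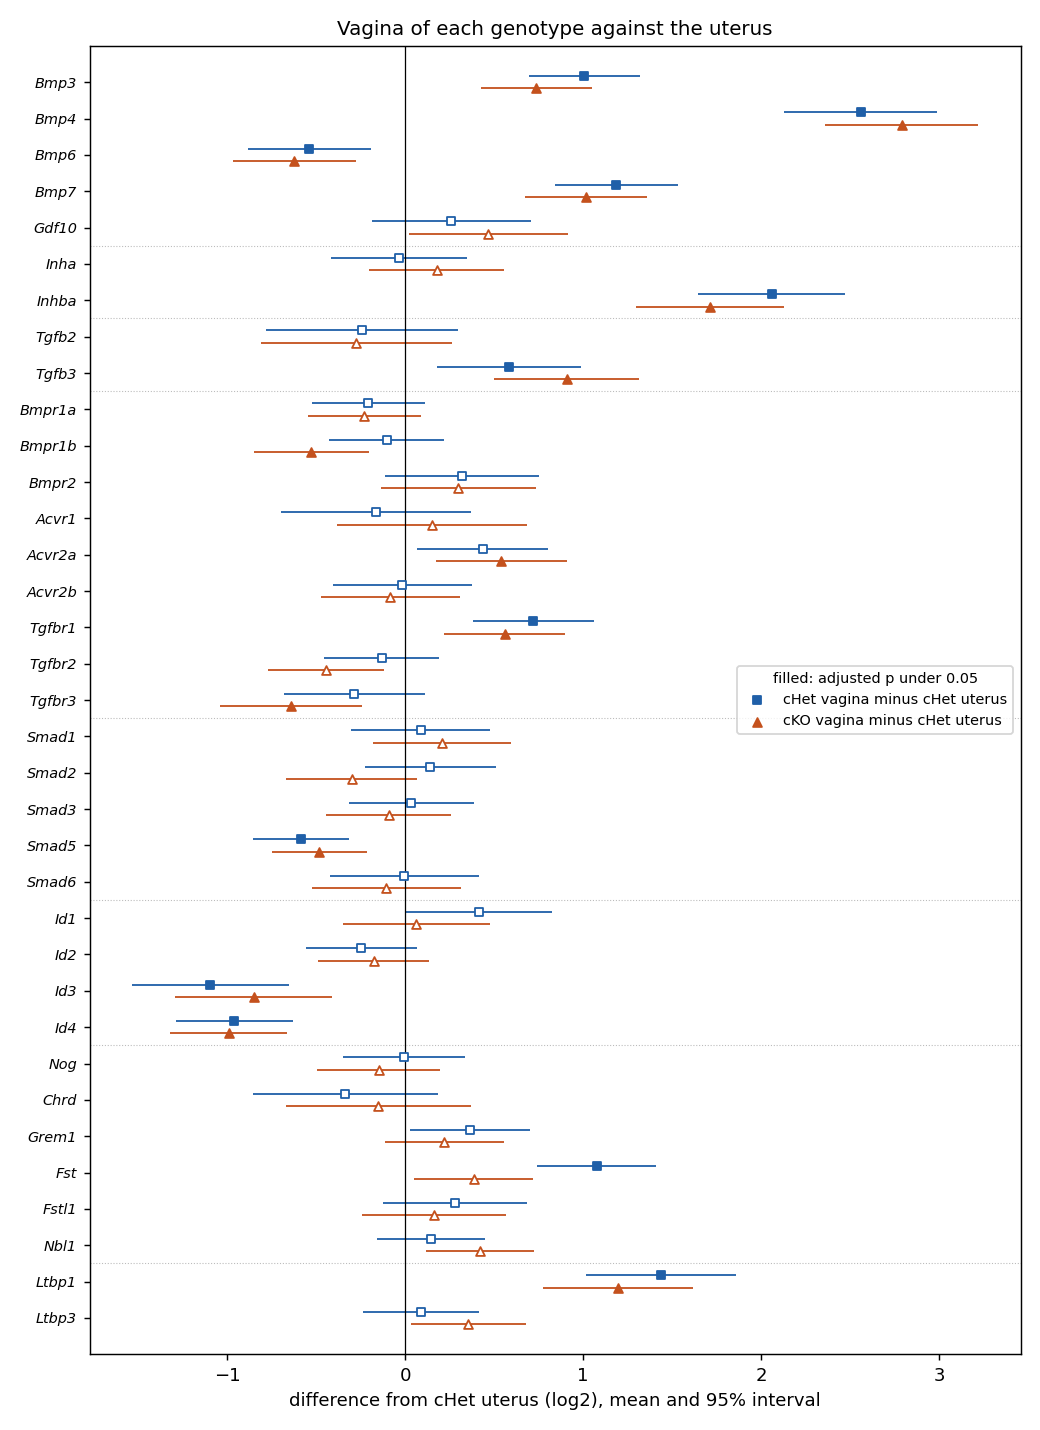
Difference of each vagina from cHet uterus (log2, horizontal axis) with its 95% interval for every tested member, squares for cHet and triangles for cKO vagina, filled where the adjusted p was under 0.05. Both vaginas share the uterine pools, and the Fst pair stands at 1.08 and 0.39.

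The ligand differences from uterus in cKO vagina stood beside those in cHet vagina as follows. Bmp4 was 2.79 against 2.56 (adjusted p in cKO = 7.5e-08) and Inhba 1.71 against 2.06 (9.27e-06). Bmp7 was 1.02 against 1.19 and Bmp3 0.74 against 1.01 (0.000252 and 0.00179). Each of these ligand genes was called higher in both genotypes. Tgfb3 was 0.91 against 0.58 (0.00279). Bmp6 was called lower in cKO vagina (-0.62, adjusted p = 0.0123), where no pool was above background, by at least 1.28-fold between group means. Its probe passed the filter with 4 arrays, 3 of them uterine, so it entered the test mainly through the group where it is high. The call was lost in pools 3 and 4 alone (-0.38, adjusted p = 0.157).

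Receptors gave more calls in cKO vagina, 4 of 9 against 1 of 9, where 18.3% and 18.6% of all genes were called. This contrast was not itself tested. It counts Bmpr1b, whose second probe differed from uterus by -0.46 in cHet and -0.47 in cKO vagina. Tgfbr1 was 0.56 and Acvr2a 0.54 above uterus (adjusted p = 0.0208 and 0.0379). Tgfbr3, or betaglycan, a co-receptor for TGF-beta and inhibin, read log2 6.49, 7.05, 6.30 and 6.17 in cHet uterus pools 1 to 4, 6.64, 6.16, 5.92 and 6.15 in cHet vagina and 5.84, 5.82, 5.92 and 5.86 in cKO vagina. The cKO pools lay below all uterine pools, with a difference of -0.64 (adjusted p = 0.0235), and Bmpr1b differed by -0.53 (adjusted p = 0.0225). Each of these 4 calls depended on single pools. Tgfbr1 lost its call without uterine pool 1 or cKO pool 3 or 4, and Acvr2a without uterine pool 1, 2 or 3 or cKO pool 1, 2 or 3. Bmpr1b and Tgfbr3 each lost it without uterine pool 2 or cKO pool 1 or 2. Adjusted p in these cases was 0.0518 to 0.126. Over 23 alternatives the call held in 18 for Tgfbr1, 12 for Acvr2a, 19 for Bmpr1b and 18 for Tgfbr3. Tgfbr1 also lost it with median scaling (0.39, adjusted p = 0.138) and in pools 1 and 2 alone (0.35, adjusted p = 0.432).

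Of the remaining called members, Ltbp1 was 1.20 above uterus in cKO vagina, and Id3, Id4 and Smad5 differed by -0.85, -0.99 and -0.48 (adjusted p = 0.000357, 0.00764, 0.000206 and 0.012). Averaging the probes ended the Smad5 call here too (-0.36, adjusted p = 0.0655), as did using pools 1 and 2 alone (-0.30, adjusted p = 0.458). Bmp3, Bmp4, Bmp7, Inhba, Ltbp1 and Id4 stayed called in both vaginas under all 23 alternative settings. The same held for Fst and Id3 in cHet vagina and for Tgfb3 in cKO vagina.

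Other genes of the pathway, from a list of 71 symbols, were measured in the same fit, and 35 were tested. In cHet vagina 5 were called higher and 9 lower than in uterus, or 40.0%, against 18.6% of all genes. In cKO vagina 3 were higher and 7 lower, or 28.6%, against 18.3% of all genes. Between the genotypes 0 were called by limma, against 0.385% of all genes. At an unadjusted p under 0.05 there were 2, against 7.05% of all genes. The largest changes were in Amhr2, the receptor for anti-Müllerian hormone, which fell by 3.54 in cHet vagina against uterus, and Itgb6, an integrin subunit that activates latent TGF-beta, which rose by 1.74 (adjusted p = 6.82e-10 and 8.19e-07). Ccn2 and Tgfbi, commonly used TGF-beta targets, differed by -1.59 and -1.37 (adjusted p = 5.67e-06 and 2.97e-06). Bmper, a BMP-binding modulator, differed by -1.10, and Htra1, a secreted protease that can block TGF-beta family signals, by -0.96 (adjusted p = 0.000288 and 0.0124).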

How the data were processed

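Total RNA from 12 tissue pools was hybridised to 1-colour Illumina bead arrays as biotin-labelled cRNA, per the labels' protocols. The authors deposited linear intensities, 1 value per probe for each array, scaled to column means of 248.3 to 252.2. Their method is not stated in these sources. A second deposited table has 12 signal columns among 24 columns of per-sample values that match no label and were not used.

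Background per array was the mode of log2 intensity below the 80th percentile, with its SD from the values below the mode. Intensities were corrected by normexp (limma 3.58.1, R 4.3.3, offset 16), quantile normalised and put on the log2 scale. Quantities called log2 are on this scale, and probe levels of different genes are not compared. A probe counted as above background past the 99% point of the background distribution. The brightest probe stood for its gene, named by the platform annotation. A bound for a group below background uses each array's background level.

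Group means over the 12 arrays came from lmFit and eBayes in limma, with two-sided adjusted p from Benjamini-Hochberg over 11178 genes and calls under 0.05. The fit was also run on simulated data with independent noise. No difference between the sets of pools was simulated, so that run does not cover the one seen in these arrays. Precision is limited by the number of arrays. The members, the lists and the genes named were chosen with earlier results of these data known. Members given pool by pool were those called against uterus, up to 8 a direction, plus Bmp4, Bmp7, Inhba, Tgfb2, Bmpr1a, Bmpr1b, Acvr2a, Smad3, Smad6, Id1, Id2, Fst, Nog and Grem1. At most 6 called genes of the other list were named, by size of change. Alternatives were other background, normalisation, filter, probe and model choices, single sets, and each pool left out.

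Deviations of same-numbered cHet vagina and uterus pools from their group means correlated at 0.118 to 0.431 in 4 pairs, over the 0.1 of the rule used. Pools 1 and 2 of cHet vagina correlated more with a uterine pool of another number, at up to 0.378 and 0.263. The correlations therefore do not establish pairs, and no label says what a number shares. The planned fit without pairs was kept.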

Additional observations from a re-analysis of the deposited data

Results flagged for a closer look

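Of 105 groups of 4 pools tested over the 35 members, 9 held 1 pool far from the other 3 by Dixon's criterion, which chance meets in about 1 in 20 groups. In uterus, Bmp3 stood at log2 4.88 in pool 3 against 4.48 to 4.52 in the others. Id2 stood at 10.65 in uterine pool 3 against 10.20 to 10.24, and Smad6 at 5.30 in uterine pool 2 against 4.63 to 4.74. Pool 2 of cHet vagina was low in 3 members. It read 10.16 for Tgfbr1 against 10.57 to 10.62, 9.07 for Smad3 against 9.46 to 9.53, and 7.75 for Ltbp1 against 8.17 to 8.23. Nog stood at 4.82 in cHet vaginal pool 1 against 4.23 to 4.33. In cKO vagina, Tgfb2 was 6.50 in pool 2 against 7.23 to 7.35, and Id3 was 6.37 in pool 3 against 6.89 to 6.98.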

How the results depend on the processing

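The counts of called members kept within 1.5 times their value under 23 alternatives in the comparisons with uterus. For cHet vagina, 12 members became 9 to 13, and 10 to 12 with 1 pool left out. For cKO vagina, 14 became 12 to 16, and 11 to 15 with 1 pool left out. Between the genotypes 0 members became 1, Fst, with a replicate block (adjusted p = 0.0488) and 1, again Fst, with replicates 1 and 2 against 3 and 4 as a term, and stayed at 0 with any 1 pool left out. The block changed no other call. Same-numbered pools correlated at 0.07 to 0.49 between the vaginas and at 0.07 to 0.31 between cKO vagina and uterus, not over 0.1 in every pair. Scaling arrays by their median moved the median of all genes to -0.11 in cKO vagina against uterus. Dim probes such as Fst, Bmp6, Nog, Smad6 and Grem1 are limited by signal over background.

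Only the members given pool by pool were followed singly through the settings. Among these, sign changes were met in comparisons without a call. Members not followed could change sign too. Acvr1 differed between the cHet organs by -0.47 within pools 1 and 2 and by 0.15 within pools 3 and 4. In cHet vagina against uterus, replicates 3 and 4 alone gave Bmpr1a 0.080, Nog 0.018, Smad6 0.043 and Tgfb2 0.23, and median scaling gave Smad3 -0.028. In cKO vagina against uterus, replicates 3 and 4 gave Id1 -0.16, Nog 0.020, Smad3 0.059, Smad6 0.15 and Tgfb2 0.023, and median scaling gave Id1 -0.078. Between the vaginas, replicates 3 and 4 gave Acvr2a -0.12, Nog 0.0019, Smad3 0.015 and Smad6 0.11, and replicates 1 and 2 gave Bmpr1a 0.32, Id2 -0.020 and Tgfb2 0.15. The cause was not tested. With 1 pool left out, members that changed sign ranged over the values that follow. In cHet vagina against uterus they were Nog -0.14 to 0.11, Smad3 -0.014 to 0.14, Smad6 -0.15 to 0.14 and Tgfb2 -0.39 to 0.047. In cKO vagina against uterus they were Id1 -0.060 to 0.20, Smad3 -0.20 to 0.0015 and Smad6 -0.20 to 0.040. In cKO against cHet vagina they were Acvr2a -0.013 to 0.21, Bmpr1a -0.13 to 0.055, Id2 -0.011 to 0.12, Smad6 -0.21 to 0.045 and Tgfb2 -0.32 to 0.16.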
